A study of Mus musculus with 2 samples.

Results

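The CD209 lectins described here are Cd209a, Cd209d, Cd209e and Cd209f, 4 of the 7 Cd209 genes among the 20451 genes counted in sorted mouse thymus cells. They were chosen by name, selected on their UMI counts by cell type and genotype in these same cells, so the levels and ratios below describe these libraries and no test was made on them. The cells came from 7-week-old mice of a wildtype group, named B6WT in the labels and WT here, and an Mgl2DTR_eGFP group. In the Mgl2DTR_eGFP line the Mgl2 gene drives a diphtheria toxin receptor and eGFP, so that toxin acts on cells that express Mgl2. These mice received 500 ng of toxin, and the exposure lasted 48 h. The labels do not settle whether WT mice also received it. Thymus tissue of both groups was digested with collagenase D at 1 mg/ml, depleted of CD90.2+ thymocytes, and sorted as live cells positive for CD11c and CD11b staining. All cells were run in 1 pool with antibody hashtags for genotype, and no animals are named, so a difference between genotypes has no replicate check.

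Of 28926 cells, 11586 carried the WT hashtag alone (116719748 UMIs, the counted transcript molecules, with a median of 7820 per cell) and 7433 the Mgl2DTR hashtag alone (71521759 UMIs, median 6930). The gene tables shared 0 cell barcodes. A pair of hashtags marked 9829 cells, which were left out of the comparisons. Clustering without Mgl2 or any Cd209 gene gave 32 clusters, named "-like" only from marker genes. The labels call the cells thymocytes, but T cell or thymocyte-like clusters held only 2262 of the WT cells. Levels are UMIs of a gene per 1000000 UMIs of the same cells (CPM), with exact Poisson 95% intervals in parentheses. All intervals cover counting error only, not the spread between animals. Those of levels and ratios treat each UMI as independent and leave out the spread between cells. They are too narrow where a few cells hold most UMIs of a gene.

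CD209 proteins are C-type lectins of the cell surface that bind mannose- and fucose-bearing glycans in a calcium-dependent way. The mouse family arose by duplication of an ancestral gene, and human DC-SIGN is its best-known relative. Cd209a is widely used as a marker of type 2 conventional dendritic cells (cDC2) and of monocyte-derived dendritic cells. In the thymus, dendritic cells and macrophages present antigen to developing T cells and clear dying ones.

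The genes lie together on chromosome 8 (GRCm38, GENCODE M21). Cd209a occupies chr8:3743397-3748984, Cd209e chr8:3847965-3854309, Cd209d chr8:3871824-3878555 and Cd209f chr8:4102787-4105835, all on the minus strand. From the start of Cd209a to the end of Cd209g the family spans 394.3 kb, and 224.2 kb separate Cd209d from Cd209f. Cd209g, on the plus strand, lies 28.3 kb beyond Cd209f. The sequences upstream of the RefSeq start sites (GRCm38.p6) are printed because the first 3 genes had their highest levels in the same cluster and Cd209f in another. Each reads 5′ to 3′ on the gene's strand and ends where an annotated transcript begins, for Cd209g a protein-coding one. They cover chr8:3748985-3749234 for Cd209a, chr8:3854310-3854536 for Cd209e, chr8:3878556-3878749 for Cd209d, chr8:4105836-4106014 for Cd209f and chr8:4134486-4134651 for Cd209g. The Cd209g window lies inside the annotated gene, which starts at chr8:4134098. Left out next to the RefSeq start site were 23 bases for Cd209e, 56 for Cd209d, 71 for Cd209f and 84 for Cd209g. Motif positions are counted from the RefSeq start site. Capitals mark motif letters in the first 3 genes, and in Cd209f and Cd209g the part of a 154-base run that both share.
Cd209a: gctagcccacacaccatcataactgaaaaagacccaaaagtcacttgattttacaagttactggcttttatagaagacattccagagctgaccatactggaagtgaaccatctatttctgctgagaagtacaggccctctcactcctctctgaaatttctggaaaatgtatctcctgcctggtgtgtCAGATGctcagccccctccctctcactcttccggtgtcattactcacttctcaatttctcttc
Cd209e: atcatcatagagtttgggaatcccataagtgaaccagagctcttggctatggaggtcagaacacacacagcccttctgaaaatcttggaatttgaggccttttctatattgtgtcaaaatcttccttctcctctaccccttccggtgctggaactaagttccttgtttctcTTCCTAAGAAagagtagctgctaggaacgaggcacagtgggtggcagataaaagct
Cd209d: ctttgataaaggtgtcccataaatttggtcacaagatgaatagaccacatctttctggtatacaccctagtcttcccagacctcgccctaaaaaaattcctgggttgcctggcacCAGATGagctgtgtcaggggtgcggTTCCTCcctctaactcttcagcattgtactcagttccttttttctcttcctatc
Cd209f: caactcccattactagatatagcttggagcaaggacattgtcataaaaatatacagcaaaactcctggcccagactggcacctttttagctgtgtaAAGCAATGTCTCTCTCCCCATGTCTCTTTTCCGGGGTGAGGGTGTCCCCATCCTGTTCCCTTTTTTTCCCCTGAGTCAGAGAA
Cd209g: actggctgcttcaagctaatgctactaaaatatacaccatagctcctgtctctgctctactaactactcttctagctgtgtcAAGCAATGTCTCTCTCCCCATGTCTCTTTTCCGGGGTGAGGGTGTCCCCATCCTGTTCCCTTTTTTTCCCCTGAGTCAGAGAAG

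A STAT6-type motif, TTC and GAA with 4 bases of any kind between them, was found in Cd209e, 79 to 70 bases before its start, and is in 5.86% of 27018 RefSeq promoters. Cd209d held GAGGAA, a PU.1-type motif, on its reverse strand, which 23.1% of promoters hold. The E box letters CAGNTG were found in Cd209a and Cd209d and are in 44.5% of promoters. An IRF-type motif, GAAA repeated after 2 bases of any kind, is in 3.04% of promoters and was in none of these 5 windows. Both strands of the 250 bases before each start site were searched, a match describes letters and not a binding site, and a missing match says only that the letters are absent from the window. Of the aligned bases of the Cd209f and Cd209g windows 90.5% were identical, against 52.9% to 69.5% for every other pair of the 7 genes. Since 3′ libraries count transcript ends, shared ends could split reads between paralogs. Among the last 500 transcript bases of Cd209a, Cd209d and Cd209e the longest shared run was 13 bases, and that of Cd209f with any of them was 11. In these ends Cd209d shared a run of 25 bases with Cd209b and of 23 with Cd209c, and Cd209b shared 26 with Cd209c. Cd209f and Cd209g shared a run of 29 bases there and of 416 in the full transcripts, so their counts are less certainly separate.

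Cd209a, Cd209d and Cd209e had their highest levels in the same WT cells, cluster 13. There Cd209a stood at 856 CPM (827 to 885), Cd209d at 2499 CPM (2450 to 2548) and Cd209e at 489 CPM (468 to 511). The cluster was 389 of the 11586 WT cells and held 34.1% of all WT Cd209a UMIs, 52.1% of the Cd209d UMIs and 61.5% of the Cd209e UMIs. A UMI of Cd209a was found in 89.2% of its cells, of Cd209d in 90.5% and of Cd209e in 65.0%. The median cell held 6, 18 and 2 UMIs of these genes. Its other leading genes were Cyp7b1, Apod, Mgl2, Ngfr, Cd200r1 and Clec10a. The name cDC2-like rests on 4 of 12 markers (Mgl2, Clec10a, Cd7 and Tnip3). When the Cd209 genes were allowed into the clustering, the matching cluster counted 3 cDC2 and 4 monocyte markers and stayed unnamed, so the cluster number is the safer name.

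Cluster 9, the other cDC2-like cluster, carried mainly Cd209a. Its 533 WT cells gave 453 CPM of Cd209a (436 to 471), 197 CPM of Cd209d (186 to 209) and 55.9 CPM of Cd209e (49.9 to 62.5). Mmp12, a secreted elastase, Ear2, an eosinophil-associated ribonuclease, and the adhesion molecule Epcam led this cluster, which counted 5 of 12 cDC2 markers. The median cell held 2 Cd209a UMIs and 0 of Cd209d or Cd209e. The 10% of cells with the most UMIs held 77.5% of the Cd209d UMIs and 84.2% of the Cd209e UMIs, against 41.7% for Cd209a. Cluster 13 was more even, with 34.4%, 29.6% and 43.2% of Cd209a, Cd209d and Cd209e UMIs in its top 10% of cells.

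**Figure D1:**
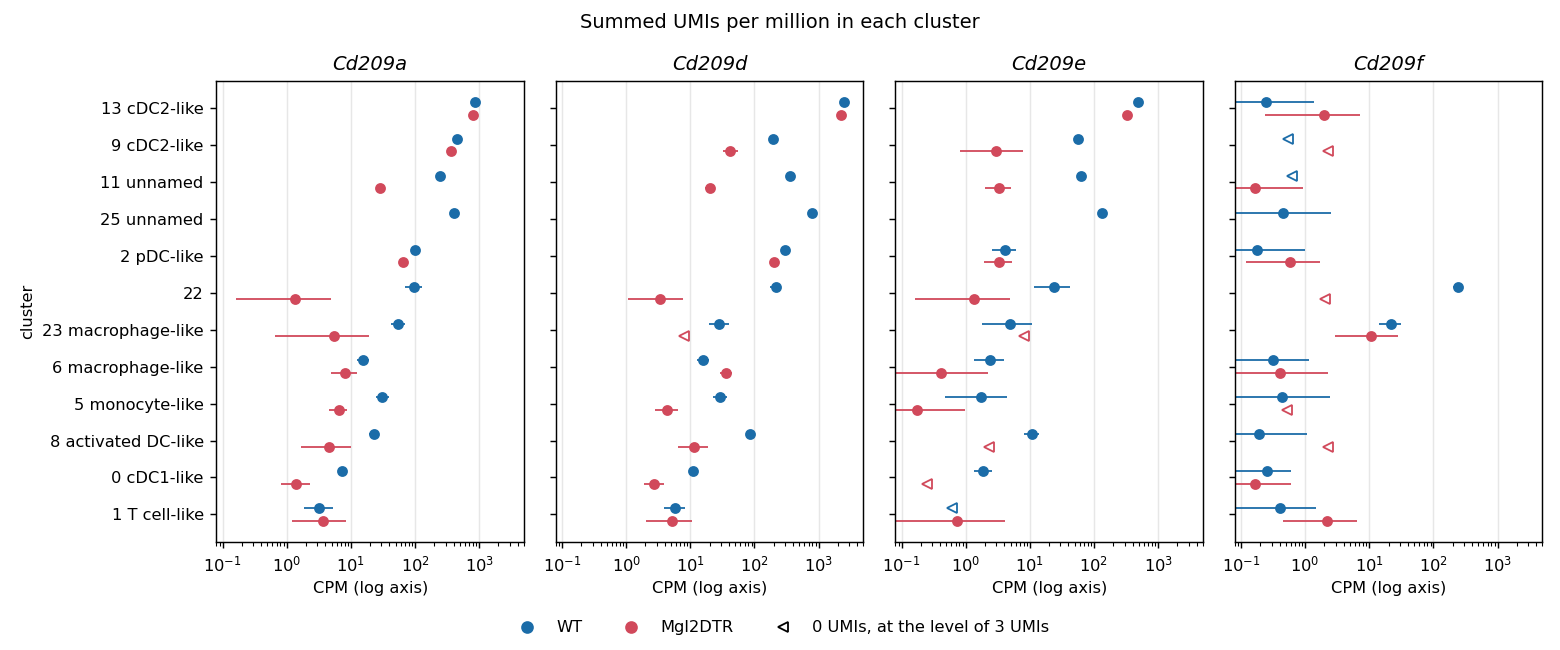
CPM of each gene on a log axis in 12 clusters, for WT and Mgl2DTR cells, with exact Poisson 95% intervals; a triangle marks 0 UMIs at the level of 3 UMIs, and groups under 50 cells are not drawn. Cluster 13 is highest for Cd209a, Cd209d and Cd209e, and WT cluster 22 is highest for Cd209f at 241 CPM.

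Below these clusters the order of the genes' levels was not the same. For Cd209a, the WT levels went on with cluster 25 at 403 CPM (376 to 430), cluster 11 at 242 CPM (228 to 256) and cluster 2 at 101 CPM (92.8 to 110). For Cd209d, cluster 25 came second at 799 CPM (762 to 838), followed by cluster 11 at 363 CPM (346 to 380) and cluster 2 at 299 CPM (284 to 313). Cluster 22, at 215 CPM of Cd209d (175 to 261), could not be ordered against cluster 9, as their intervals overlapped. Cd209e had 132 CPM in cluster 25 (118 to 149) and 61.7 CPM in cluster 11 (54.9 to 69.2), which overlapped cluster 9. Cluster 25 is unnamed, with 9 of 14 T cell markers beside the CD209 genes, and 87.4% of its WT cells were called doublets from their neighbours. Cluster 11 is unnamed too and is led by cell cycle genes, and 41.8% of its WT cells were called doublets. What doublets contributed to the levels in these clusters was not tested. In clusters 13 and 9 the doublet calls covered 7.46% and 16.3% of WT cells.

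Plasmacytoid dendritic cell-like cells (pDC-like, the interferon-producing lineage) held Cd209d and Cd209a with almost no Cd209e. Cluster 2, with 10 of 10 pDC markers and doublet calls on 5.06% of its 889 WT cells, gave 299 CPM of Cd209d but 4.13 CPM of Cd209e. Its Cd209d to Cd209e UMI ratio was 72.3 (48.1 to 114), against 5.11 (4.87 to 5.36) in cluster 13, 3.53 (3.11 to 4.02) in cluster 9 and 6.03 (5.81 to 6.26) over all WT cells. The ratio of Cd209d to Cd209a was 2.96 (2.68 to 3.26) in cluster 2 and 2.92 (2.81 to 3.04) in cluster 13, but 0.435 (0.405 to 0.468) in cluster 9. The Mgl2DTR cells had the same contrast, with a Cd209d to Cd209e ratio of 61.8 (38.4 to 107) in cluster 2 and 6.78 (6.04 to 7.64) in cluster 13.

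**Figure D2:**
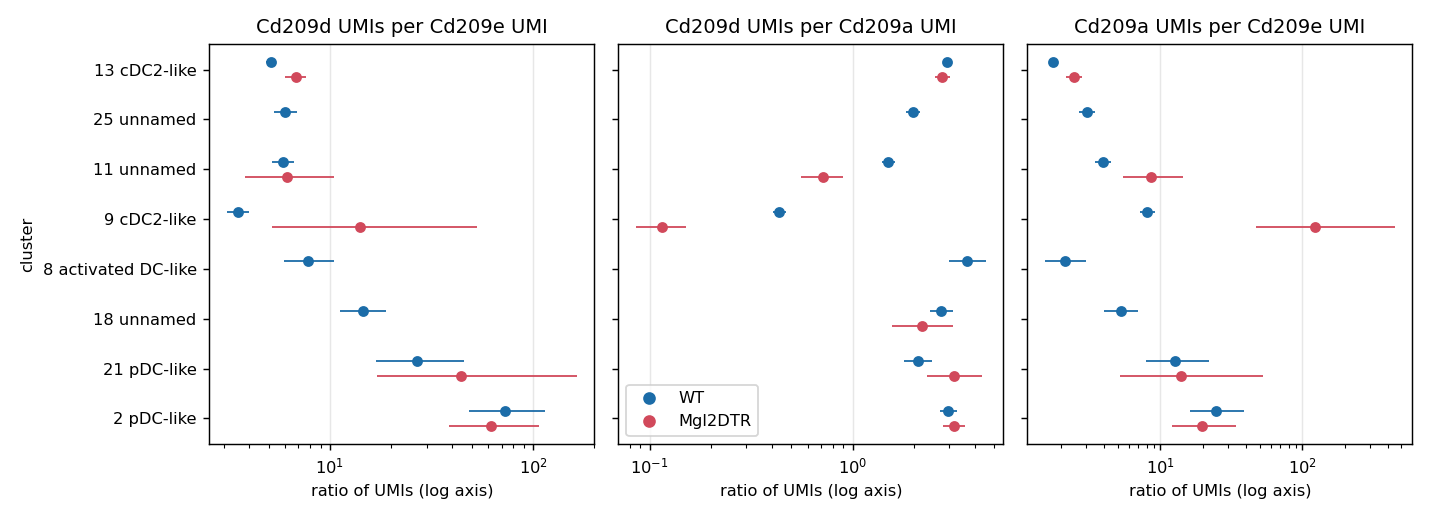
Ratios of summed UMIs between pairs of CD209 genes in 8 clusters on log axes, for WT and Mgl2DTR cells, with exact 95% intervals; points with fewer than 4 UMIs of the second gene or 50 UMIs in all, and cluster 25 of Mgl2DTR cells, are not drawn. Cluster 2 sits at 72.3 Cd209d UMIs per Cd209e UMI in WT cells and cluster 13 at 5.11, and cluster 9 is the lowest in Cd209d per Cd209a.

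Shares of cells were compared with every cell thinned to 2000 UMIs, leaving out shallower cells (7 in WT cluster 13, 15 in cluster 9 and 16 in cluster 2). In WT cluster 13, Cd209d was found in 81.7% of 382 cells, Cd209a in 63.1% and Cd209e in 41.6%. In cluster 9 Cd209a was found in 41.1% of 518 cells, Cd209d in 16.4% and Cd209e in 6.37%. Cluster 2 had Cd209d in 28.8% of 873 cells, Cd209a in 14.8% and Cd209e in 0.916%. T cell or thymocyte-like cells, which should lack the genes, gave 0.945% for Cd209d and 0.709% for Cd209a in 1693 WT cells. Of Cd209e they held 0 UMIs after thinning. Before thinning, 52 of the 2262 T cell-like cells held Cd209d (2.30%), 36 held Cd209a (1.59%) and 4 held Cd209e, at a median depth of 3207.5 UMIs. The unthinned shares in cluster 2, at a median depth of 5967 UMIs, were 43.9% for Cd209d, 28.5% for Cd209a and 1.80% for Cd209e.

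**Figure D3:**
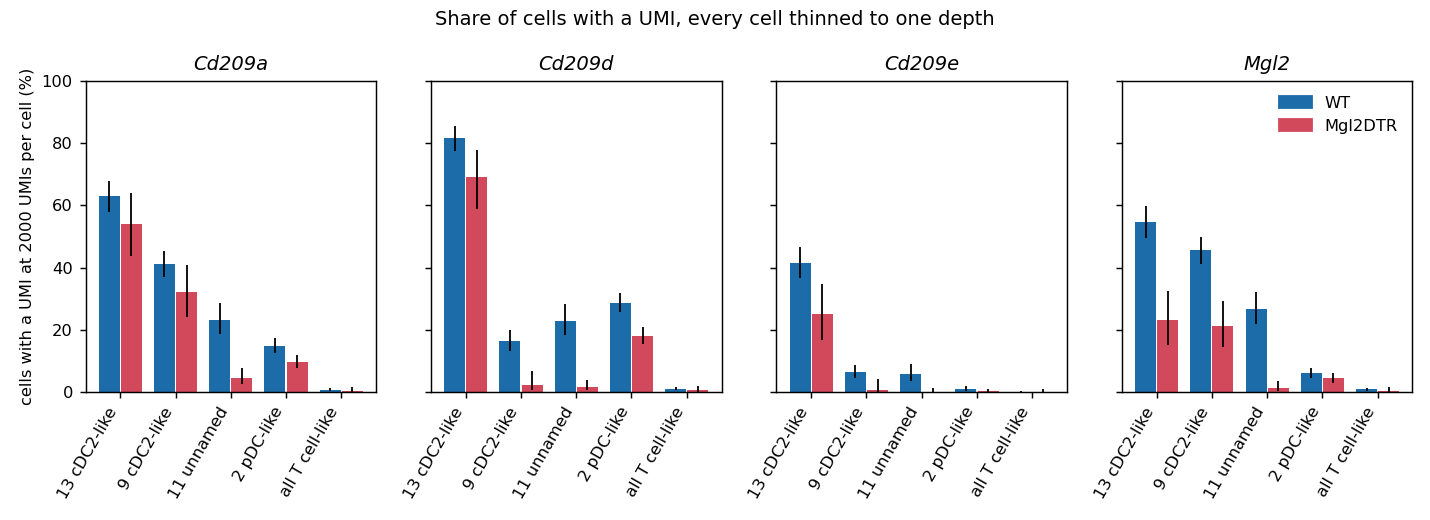
Percent of cells with a UMI of Cd209a, Cd209d, Cd209e or Mgl2 after thinning each cell to 2000 UMIs, in 4 clusters and in all T cell-like cells, with exact binomial 95% intervals. Cd209d reaches 81.7% in WT cluster 13, Cd209a leads in cluster 9, and the T cell-like bars lie near 0.

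Within single cells of WT cluster 13, detection of the genes after thinning overlapped without being nested. These cells had a median depth of 10131 UMIs before thinning, so a gene without a UMI may still be expressed. The patterns describe detection only. At 2000 UMIs, 152 of the 159 cells with Cd209e also held Cd209d (95.6%), against 160 of the 223 cells without Cd209e (71.7%), and 152 of the 312 cells with Cd209d held Cd209e (48.7%). Cd209a was found in 120 of the 159 cells with Cd209e (75.5%), and 27 of the 241 cells with Cd209a had no Cd209d UMI. All of Cd209a, Cd209d and Cd209e were found in 115 of 382 cells (30.1%), Cd209a and Cd209d without Cd209e in 99 (25.9%), Cd209d and Cd209e without Cd209a in 37 (9.69%), and Cd209d alone in 61 (16.0%). Cd209e alone was seen in 2 cells, and 41 cells (10.7%) held none. In cluster 9 the usual pattern among positive cells was Cd209a alone, in 146 of 518 cells (28.2%), and only 13 held all 3 genes. In cluster 2 it was Cd209d alone, in 186 of 873 cells (21.3%), with Cd209a alone in 67 and both in 60.

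The macrophage-like clusters 6 and 23 held little of these genes. Cluster 6, with complement genes C1qa, C1qb and C1qc in the lead, gave 15.5 CPM of Cd209a and 15.8 CPM of Cd209d in WT cells. Cluster 23, led by Vcam1 and the iron exporter Slc40a1, gave 54.8 CPM of Cd209a (42.4 to 69.7), 28.2 CPM of Cd209d (19.5 to 39.4) and 4.98 CPM of Cd209e (1.83 to 10.8), the Cd209a from 11 of 116 cells.

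Cd209f had its highest level elsewhere. It gave 166 UMIs in 59 WT cells, and 112 of them (67.5%) came from the 53 WT cells of cluster 22, at 241 CPM (198 to 290). A UMI of it was found in 22 of those 53 cells (41.5%), and 17% of the cluster's UMIs were in 1 cell. Cluster 23 came second with 26 UMIs, 21.6 CPM (14.1 to 31.6), of which 42.3% were in 1 cell. The WT and Mgl2DTR cells of cluster 23 had median depths of 4641.5 and 2027 UMIs, and 62.9% and 68.8% of them were called doublets. In cluster 13 Cd209f was seen once in 389 WT cells. Of the 21 WT cells with at least 2 Cd209f UMIs, 18 were in cluster 22, 3 in cluster 23 and 0 elsewhere. Cd209g had 54 UMIs in WT cluster 22, 116 CPM (87.2 to 151) and 73.0% of its WT UMIs. It was found in 12 of the 18 cells with at least 2 Cd209f UMIs and in 3 of the 31 with none. Cd209d was found in 9 of those 18 cells and in 5 of the 31. Those groups had median depths of 7161.5 and 5743 UMIs. Each cell in them carried a doublet call, so UMIs of different genes under 1 barcode can come from different cells. Whether Cd209f was expressed in the same cell as Cd209d or Cd209g was not tested.

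The WT cells of cluster 22 carried genes of several cell types, with those of resident tissue macrophages among them. Cd209d stood there at 215 CPM, in 17 of 53 cells, with an interval that overlaps that of cluster 9, and Cd209a at 96.7 CPM, in 12 of 53. Folr2, a folate receptor, stood at 722 CPM, Lyve1, a hyaluronan receptor, at 475 CPM, the haemoglobin scavenger receptor Cd163 at 350 CPM, the mannose receptor Mrc1 at 1051 CPM, and C1qa at 2676 CPM. Other macrophage genes went both ways. Apoe stood at 7495 CPM, C1qb at 2229 CPM, C1qc at 1612 CPM and Timd4 at 118 CPM in 20 of 53 cells. Low were Vcam1 at 17.2 CPM, the factor Spic at 6.45 CPM and Cd5l at 0 UMIs. Cd5l was also low in WT cells of the macrophage-like cluster 6, at 0.160 CPM. Of monocyte genes, the chemokine receptor Ccr2 stood at 209 CPM in 20 of 53 cells and Ly6c2 at 83.8 CPM in 8, while the matrix gene Vcan and the arginase gene Arg1 had 0 UMIs. The cDC1 receptor Xcr1, at 150 CPM, and the pDC lectin Siglech, at 114 CPM, were present as well. The cluster's name by markers, monocyte-like, was set on the cells of both genotypes together, and the WT cells are called here by the cluster's number. All 53 were called doublets, with a median of 27 of 50 nearest neighbours carrying a pair of hashtags, against 8 among the Mgl2DTR cells of the cluster. They held 12 UMIs of the T cell receptor gene Trac and 18 of Cd3e. Their median count of a hashtag that belongs to neither genotype was 22, as in WT clusters 9 and 13. Cells were kept for a call of the WT hashtag alone, so that choice set a low count. The count therefore says nothing about doublets. The part of doublets in the Cd209f level was not tested.

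**Figure D4:**
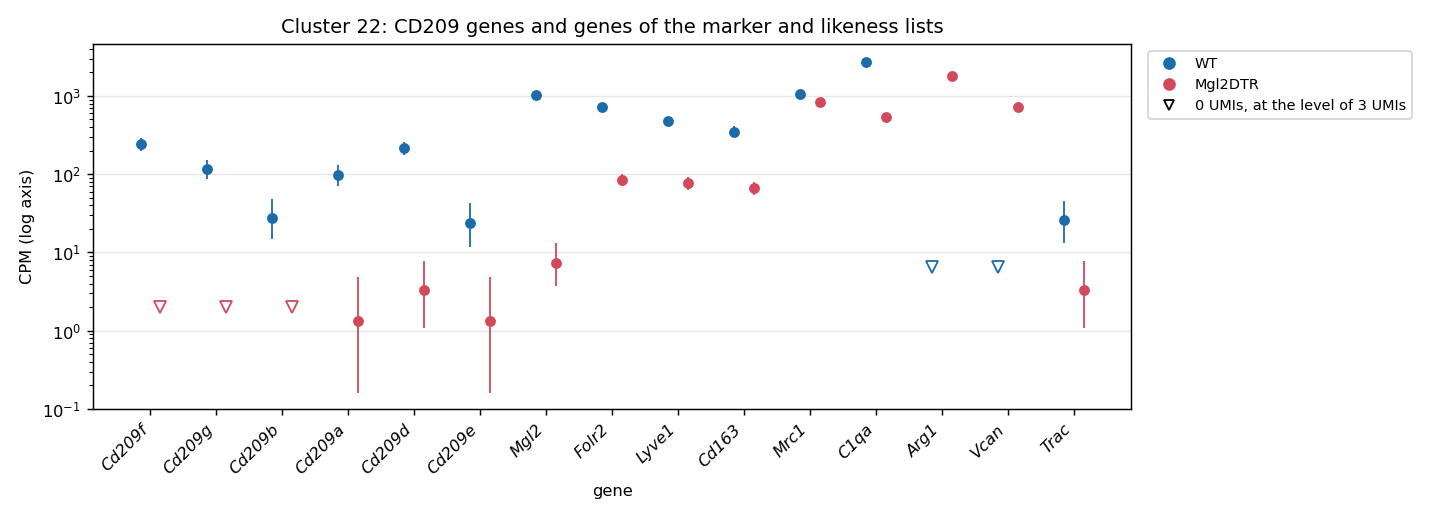
CPM on a log axis of CD209 genes and genes of macrophages, monocytes and T cells in the WT and Mgl2DTR cells of cluster 22, with exact Poisson 95% intervals; triangles mark 0 UMIs at the level of 3 UMIs. Cd209f, Cd209g and Cd209b are at 0 UMIs in Mgl2DTR cells, and Arg1 and Vcan are at 0 UMIs in WT cells.

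Across genotypes, a gene was called higher or lower when its CPM differed by at least 1.5-fold, the 95% interval of the ratio (Mgl2DTR over WT) lay entirely above or below 1, and the groups held at least 50 UMIs in all. Over all cells Cd209a went from 87.1 CPM in WT to 30.3 in Mgl2DTR cells, with Cd209d at 167 and 57.1, Cd209e at 27.6 and 5.47, and Cd209f at 1.42 and 0.378. All 4 were called lower, with ratios of 0.348 (0.332 to 0.364), 0.343 (0.331 to 0.355), 0.198 (0.178 to 0.220) and 0.265 (0.170 to 0.400). Of 14097 genes 5.26% were called lower, and their median log2 ratio was -0.01. The members were chosen with this contrast known, so nothing is read from that comparison. Cluster 13 was 3.36% of WT cells (3.04 to 3.70) and 1.37% of Mgl2DTR cells (1.12 to 1.66), and cluster 9 was 4.60% (4.23 to 4.998) and 1.79% (1.5 to 2.12). Fewer such cells and less RNA per cell cannot be told apart in the sums over all cells.

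Inside cluster 13 the summed levels of Cd209a and Cd209d in the 102 Mgl2DTR cells differed little from WT, while the typical cell held less. Cd209a stood at 796 CPM (742 to 853), a ratio of 0.931, and Cd209d at 2208 CPM (2117 to 2301), a ratio of 0.884. Neither was called. The median cell held 3.5 Cd209a UMIs, against 6 in WT, and 12.5 Cd209d UMIs, against 18. At 2000 UMIs Cd209d was found in 69% of 100 Mgl2DTR cells and 81.7% of WT cells, Cd209a in 54% and 63.1%, and Cd209e in 25% and 41.6%. Cd209e was at 325 CPM (291 to 363) and was called lower at 0.665 (0.590 to 0.748), just past the fold limit, where 3.44% of 7033 genes were called lower and the median log2 ratio was 0.05. Without cells called doublets its ratio was 0.697 and it was not called. A single Mgl2DTR cell held 221 Cd209d UMIs (9.90% of the cluster's) and 60 Cd209e UMIs (18.2%). Without the top cell of each genotype the ratios were 0.817 for Cd209d and 0.566 for Cd209e, and without the top WT cell alone Cd209e, at 0.679, was not called. Mgl2 itself was called lower in the cluster, at 0.299, and Clec10a, its paralog, stood at 393 CPM (WT) and 452 CPM (Mgl2DTR) and was not called.

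In cluster 9 the genes parted. Cd209a was at 367 CPM (335 to 401) in 133 Mgl2DTR cells, a ratio of 0.810, and was not called. Cd209d was at 42.2 CPM (31.8 to 54.7), called lower at 0.214 (0.160 to 0.279), and Cd209e at 3.01 CPM (0.820 to 7.71), called lower at 0.0538 (0.0146 to 0.139). Of 7823 genes 3.52% were called lower there, with a median log2 ratio of 0.00. At 2000 UMIs Cd209a was found in 32.0% of 128 Mgl2DTR cells, Cd209d in 2.34% and Cd209e in 0.781%. Cells with Cd209a alone were 31.3% of them, against 28.2% in WT. Cd209a with Cd209d and no Cd209e was held by 0 of them, against 44 of 518 WT cells. With Cd209d in only 2.34% of the Mgl2DTR cells, that count cannot show a change in how the genes pair. At the coarser resolution of 0.5 clusters 9 and 13 were 1 cluster, and the ratios were 0.956 for Cd209a, 0.859 for Cd209d and 0.626 for Cd209e. The ratio of Cd209e in cluster 9 rests on 4 Mgl2DTR UMIs: it was 0.322 without cells holding markers of another type and 0.0291 without the cell of each genotype with the most UMIs.

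Taking cDC2-like cells as 1 class gave 0.887 for Cd209a (0.834 to 0.942) and 0.836 for Cd209d (0.799 to 0.875), which were not called, and 0.596 for Cd209e (0.529 to 0.669), called lower with 3.29% of 9090 genes. With the Cd209 genes left in the clustering, which removes the match of cluster 13 from the class, these ratios were 0.469, 0.165 and 0.0477.

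**Figure D5:**
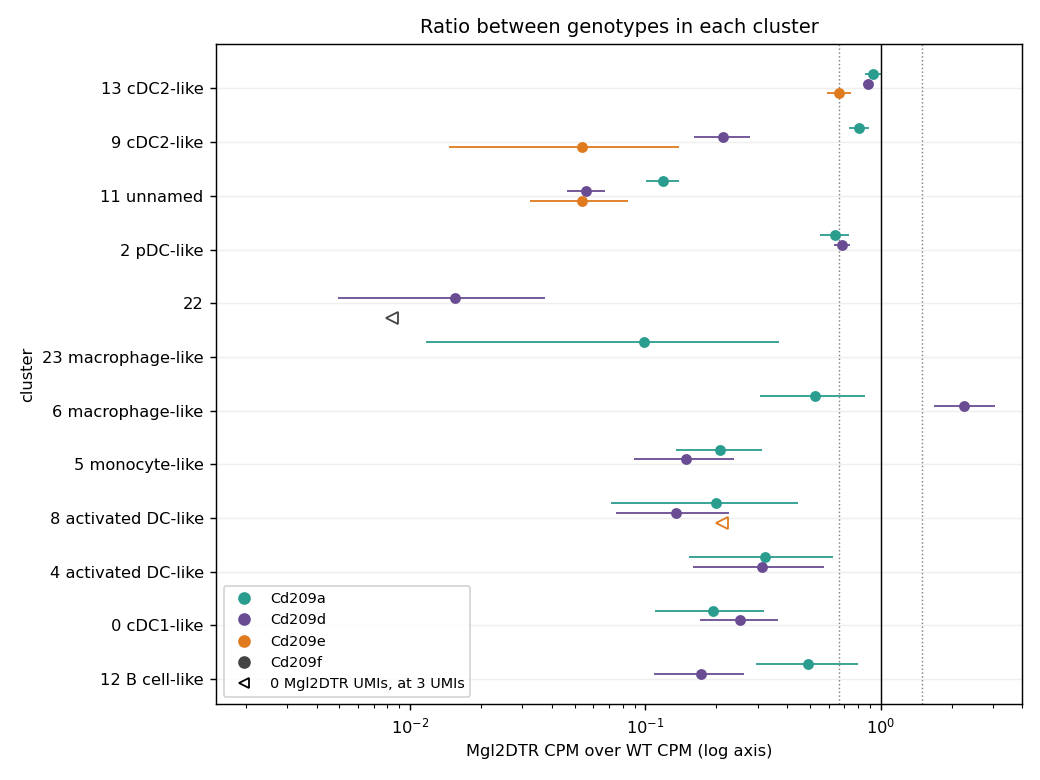
Ratio of CPM, Mgl2DTR over WT, on a log axis in 12 clusters with exact 95% intervals; dotted lines mark a ratio of 1.5 either way, a triangle marks 0 Mgl2DTR UMIs set at 3 UMIs, and genes under 50 UMIs are not drawn. In cluster 9 Cd209a lies at 0.810 with Cd209d at 0.214 and Cd209e at 0.0538, and Cd209d in cluster 6 lies at 2.26.

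In the other clusters, too, most calls were of lower levels in Mgl2DTR cells. Cd209a was measured in 14 of 23 clusters compared and called lower in 12, and Cd209d was measured in 15 and called lower in 11 and higher in 1. Cd209e was measured in 5 and called lower in all of them. Of these 35 measurements of the 4 genes, 21 reached 50 UMIs through the WT cells alone, 4 of the 5 for Cd209e included, and such a gene could hardly be called higher, so the tallies are no evidence of direction. Without the WT cell with the most UMIs of the gene, 22 of the 30 calls stood, 5 were not made and 3 genes fell under 50 UMIs. Beside each of these calls stands the share of all genes called in the same cluster and direction. The cycling cluster 11 had the highest share, 14.2% of 9167 genes, and in it Cd209a stood at 0.119, Cd209d at 0.0561 and Cd209e at 0.0537. Of the 123 Mgl2DTR Cd209d UMIs in cluster 11, 60.2% were in 1 cell, and without the top cell of each genotype the ratio was 0.0248. In the pDC-like cluster 2 Cd209a went from 101 to 64.3 CPM and was called lower at 0.636, while Cd209d went from 299 to 203 CPM, a ratio of 0.681 that was not called, where 1.83% of 8833 genes were called lower. These values lie on either side of the fold limit and close to it, and without the top Mgl2DTR cell Cd209d was called lower at 0.642. Among macrophage-like cells of cluster 6, Cd209d was called higher at 2.26 (1.68 to 3.05), where 5.12% of 8654 genes were called higher. In this cluster 68 of the 88 Mgl2DTR Cd209d UMIs (77.3%) were in 1 cell, and without it Cd209d was called lower, at 0.519. In cluster 6, 31.3% (WT) and 41.5% (Mgl2DTR) of cells were called doublets, and without these cells the ratio was 0.732.

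Low WT levels were called lower still in Mgl2DTR cells of several other types, often on few cells. In activated dendritic cell-like cluster 8, Cd209d went from 84.3 to 11.4 CPM (ratio 0.135) and Cd209a from 22.9 to 4.57 CPM (0.199). Cd209e went from 56 UMIs to 0 there, about 4.72-fold lower when the 0 is set at 3 UMIs, with 1.76% of genes called lower. Of those 56 Cd209e UMIs 16 were in 1 cell, and too few for a call were left without it. In cluster 4, of the same type, Cd209a had a ratio of 0.323 and Cd209d of 0.313, with 1.07% of genes. The cDC1-like cluster 0 gave 0.193 for Cd209a and 0.253 for Cd209d, with 1.36% of genes. The WT levels in cluster 0 were low, 7.36 CPM of Cd209a and 10.9 CPM of Cd209d. They lay above those of T cell-like cluster 1, at 3.22 and 5.84 CPM, a cell type that should lack both genes. In monocyte-like cluster 5 the ratios were 0.207 and 0.148 (7.28% of genes), but 55 of the 67 WT Cd209d UMIs there were in 1 cell. Without it the ratio of Cd209d was 0.815 on too few UMIs for a call, and the share of cells with a Cd209d UMI was 3.13% (WT) and 3.68% (Mgl2DTR). In B cell-like cluster 12 the ratios were 0.491 and 0.172 (3.09%), and in the unnamed cluster 3 they were 0.332 and 0.551 (1.71%). Without the top WT cell, Cd209a in cluster 12 (0.635) and Cd209d in cluster 3 (0.691) were not called. Clusters 18 and 21, in which all WT cells were called doublets, gave 0.311 for Cd209a, 0.249 for Cd209d and 0.0322 for Cd209e (3.41%), and 0.403 for Cd209a and 0.604 for Cd209d (1.97%). Without the top WT cell the last, at 0.674, was not called. Cd209a was also called lower in the macrophage-like clusters 6, at 0.525 (1.98%), and 23, at 0.0983 (4.69%). In cluster 6, 27 of the 97 WT UMIs and 17 of the 20 Mgl2DTR UMIs of Cd209a were in 1 cell each, and without that WT cell it was not called (0.725). In cluster 23, 19 of the 66 WT UMIs were in 1 cell, and too few were left without it. Beside clusters 13 and 2, Cd209d was measured but not called in the unnamed cluster 14, at 0.391, where its interval reached past 1.

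Cd209f was not detected in the Mgl2DTR cells of cluster 22. None of its 181 cells held a UMI, against 112 UMIs in 53 WT cells. Set against 3 UMIs, it was about 120-fold lower, a value that leaves out the counting error of the WT UMIs. In the cluster 13.2% of 4738 genes were called lower. Cd209d there went from 215 to 3.34 CPM, a ratio of 0.0156. The Mgl2DTR cells of the cluster also differed from the WT cells in other genes, with Arg1 at 1773 CPM, Vcan at 715 CPM, Folr2 at 84.9 CPM and Mgl2 at 7.35 CPM, against 1017 CPM of Mgl2 in WT cells. A loss of the WT type of cell and a change in its RNA therefore cannot be told apart. In cluster 23 Cd209f had 4 UMIs in 77 Mgl2DTR cells.

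The genes of related lists were read in cDC2-like cells, where 3.04% of all 9090 genes were called higher and 3.29% lower, and their median log2 ratio was 0.02. Of 8 neighbours of the CD209 locus 5 were measured and 0 called, with a median of -0.06. Among 22 other glycan-binding lectins 13 were measured, and the only call in the class was Mgl2, lower at 0.360 (0.330 to 0.391), with a median of 0.03. Toxin acts on cells that express Mgl2, so its calls here and in the next list are tied to the design and are not read as results. In cluster 13 alone, 1 of 11 measured lectins was called higher and 2 lower (4.21% and 3.44% of all genes). In cluster 9 alone, 2 of 13 were called higher and 1 lower (3.09% and 3.52%). Of 14 genes of lectin signalling, such as the kinase Syk and the adaptor Card9, 11 were measured in the class and 0 called. Among 7 host ligands 5 were measured and 2 were called higher, the adhesion molecule Ceacam1 at 2.18 and the integrin chain Itgam at 3.29. Of 8 genes of the IL-4 and IL-13 receptor chain, all measured, Il4ra was called higher at 2.05 and the kinase Jak3 at 1.88.

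Of 24 genes of the IL-4 and IL-13 response, 19 were measured, with a median of -0.22. The 4 called higher were the chemokines Ccl22 at 2.33 and Ccl24 at 1.78, the cytokine feedback inhibitor Socs2 at 1.59 and the transglutaminase Tgm2 at 4.80. The 4 called lower were Retnla at 0.0749, Ear2 at 0.321, Mgl2 and the checkpoint ligand Pdcd1lg2 at 0.607. In cluster 13 alone, 11 of the 24 were measured, with a median of -0.61 against 0.05 for all genes, and 5 were called lower, where 3.44% of all genes were: Mrc1 at 0.310, Ccl22 at 0.537, Mgl2, Pdcd1lg2 at 0.411 and the transcription factor Batf3 at 0.397. In cluster 9, 19 were measured, with a median of -0.03 against 0.00 for all genes. There 5 were called higher (3.09% of all genes), Mrc1 at 2.07, Ccl22 at 3.41, Ccl24 at 1.77, Clec10a at 2.35 and Tgm2 at 4.74, and 3 lower (3.52%), Retnla at 0.0315, Ear2 at 0.327 and Mgl2 at 0.433. Of 18 transcription factors 16 were measured in cDC2-like cells as a class, and 1 was called, Cebpb, higher at 2.09 (3.04% of all genes). Irf4, a factor that cDC2 need, was at 84.6 and 81.2 CPM. In cluster 9 alone, 1 of 16 measured factors was called higher and 1 lower (3.09% and 3.52% of all genes). In cluster 13 alone, 2 of 16 were called higher and 2 lower (4.21% and 3.44%).

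Across the 28 WT clusters with at least 50 cells, the genes most like each CD209 gene were ranked by Pearson r of log2(CPM + 1) over 11144 genes. The clusters share 1 pool of droplets, and these values are descriptions. For Cd209a they were Fcor (0.947), Cd209d (0.931), Clec10a (0.929), Mgl2 (0.856) and Bcl11a (0.836). For Cd209d they were Cd209a, Clec10a (0.904), Fcor (0.898), Gm14161 (0.882) and Cd209e (0.867). For Cd209e they were the nerve growth factor receptor gene Ngfr (0.908), K230015D01Rik (0.871), the retinol carrier Rbp4 (0.868), Cd209d and Cyp7b1 (0.860). Cd209f had a list of its own, with Fcna (0.917), Folr2 (0.906), Lyve1 (0.859), Cd163 (0.856) and the chemokine Ccl8 (0.851), and its r with the other 3 members was between 0.133 and 0.170. By Spearman rho the 5 genes of Cd209f were between 0.250 and 0.534, so that list rests on few clusters. Ranked over 26 Mgl2DTR clusters instead, the 5 genes most like each member shared 2 with the WT list for Cd209a, 2 for Cd209d, 2 for Cd209e and 0 for Cd209f, so the lists describe the WT cells.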

How the data were processed

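Single cells of 1 pool were sequenced with the 10x Chromium 3′ kit. The deposited values are raw counts (UMIs of each gene or hashtag in each cell) that the authors made with Cell Ranger 6.0.0, Seurat 4.0.4 and build mm10, per the submitters' processing notes. Which gene annotation they used is not stated there. Genotype came from the deposited hashtag call. Of the cell annotation, 8 columns were not used. The lectins, lists and markers were chosen with earlier results of these data known.

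Counts were log-scaled, and 2000 variable genes, 30 components and 20 neighbours went to leidenalg 0.10.2 (resolution 1). A marker counted at 2-fold and 20% of cells, and a name needed 3. Cells with at least 12 of 50 neighbours carrying a pair of hashtags were called doublets (27.5% of WT, 28.7% of Mgl2DTR) and stayed in. Ratios used summed counts of at least 50 cells per genotype. The calling code was tested on simulated data. These were independent Poisson counts, so the test could not show wrong calls that come from many UMIs in 1 cell. The named genes are the Cd209 genes, Mgl2, Clec10a, the 5 genes most like each member and called list genes; cluster 22 and 23 genes, Irf4 and list examples were chosen after their values were seen. Alternatives are given in the closing section. No proteins are shown.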

Additional observations from a re-analysis of the deposited data

Results flagged for a closer look

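Cd209d was higher in the Mgl2DTR cells of cluster 6, at a ratio of 2.26, where it was called lower in 11 other clusters. The difference between these clusters was not tested, and 77.3% of the Mgl2DTR UMIs came from 1 cell.

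Cd209f was also present in cells outside the comparisons, those with a pair of hashtags of which 1 belongs to neither genotype and has no sample label. It reached 5.93 CPM (5.20 to 6.74) in the 2312 cells that paired it with the WT hashtag and 7.25 CPM (6.44 to 8.13) in the 2762 that paired it with the Mgl2DTR hashtag. Cells with a single hashtag gave 1.42 CPM in WT and 0.378 CPM in Mgl2DTR, and those with both genotype hashtags 1.86 CPM. At least 2 UMIs of Cd209f were found in 24 and 23 cells of those 2 groups with the third hashtag. They were found in 21 WT and 1 Mgl2DTR cell with a single hashtag, and in 12 cells with both genotype hashtags. These counts depend on depth, and the groups with the third hashtag had medians of 15764 and 10862.5 UMIs per cell. Cells with a single hashtag had medians of 7820 (WT) and 6930 (Mgl2DTR).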

How the results depend on the processing

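Of the WT UMIs, cDC2-like cells held 58.9% of Cd209a, 57.7% of Cd209d and 71.1% of Cd209e. These shares were 76.9%, 75.4% and 87.3% without cells called doublets, 66.5%, 65.4% and 76.7% with doublets called at 25 of 50 neighbours, and 83.7%, 83.0% and 92.7% without cells holding another type's markers. They were 24.5%, 4.86% and 7.60% with the Cd209 genes in the clustering, where the match of cluster 13 lost its name, 67.2%, 66.6% and 80.0% at resolution 0.5, 64.1%, 60.03% and 76.5% with each cell scaled to 1 total, and 63.2%, 60.9% and 79.2% with cells thinned to 2000 UMIs. The share of Cd209f in cluster 22 was 67.5%, 79.5% thinned and 31.4% with doublets called at 25 neighbours. It has no value without doublet calls or marker-mixed cells, which leave 0 WT cells there.

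In cDC2-like cells the ratio of Cd209a moved to 0.807 without marker-mixed cells, 0.469 with the Cd209 genes in the clustering and 0.956 at resolution 0.5. That of Cd209d moved to 0.711, 0.165, 0.786 scaled, 0.784 thinned and 0.768 without the top cell of each genotype, and that of Cd209e to 0.0477 with the Cd209 genes, 0.528 scaled, 0.4995 thinned and 0.502 without those cells. In pDC-like cells Cd209a (0.614) moved to 0.535 without marker-mixed cells. Cd209d (0.717) moved to 0.648 without doublet calls, 0.843 without marker-mixed cells, 0.605 with the Cd209 genes and 0.584 thinned. Genes called in cDC2-like cells were 575, and 237 at a minimum of 200 counts; in pDC-like cells they were 348 and 116. Cd209d in cluster 6 turned from 2.26 to 0.732 without doublet calls, 0.467 without marker-mixed cells, 0.575 with the Cd209 genes and 0.665 without the top cell of each genotype. Of 169 ratio values, 165 lay on the same side of 1 as the reported one.

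No paired analysis was possible because the labels give 1 pool and no replicate numbers. The doublet call at 25 neighbours and the removal of top cells were added after seeing the data. Counts of 0 in small clusters set the limits of depth.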

Other observations

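The remaining Cd209 genes were sparse. Transcript ends of Cd209b and Cd209c share runs of 25 and 23 bases with Cd209d, so their few UMIs are less certainly separate from its counts. Cd209c gave 120 WT UMIs, of which 40 were in cluster 13 (9.87 CPM), 24 in the pDC-like cluster 2 (4.31 CPM) and 20 in cluster 9 (3.61 CPM). Cd209b gave 68 WT UMIs, with 24 in cluster 9 (4.33 CPM) and 13 in cluster 22 (27.9 CPM). In cluster 23 it had 14 UMIs, 13 of them in 1 cell.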
